A study of Mus musculus with 2 samples.

Results

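The matrix metalloproteases (Mmp), the membrane-anchored ADAM proteases, the secreted ADAMTS proteases and their tissue inhibitors (Timp) were described across 11 cell clusters of mouse gastric tumors. Members were taken by gene name, as every Mmp, Adam, Adamts and Timp gene with a number in the deposited table. The name rule itself used no measured value. The table, however, names only genes with a fold above 1.5 in some cluster, so each member entered through a cluster where it was high. Of the 18319 genes named in the table, 48 were members: 15 Mmp, 14 Adam, 15 Adamts and 4 Timp genes. The mouse annotation holds 78 protein-coding genes that match the same rule, and the other 30 are not analysed here. Genes with related names, such as those of the ADAMTS-like proteins, are not members.

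The tumors came from a line of mouse dysplastic stem cells, named DP-DSC in the labels, that was injected into female mice of the NuJ strain. NuJ is a nude strain, whose animals lack a working thymus and most T cells but keep other host cells such as macrophages, neutrophils and fibroblasts. A cystic adenocarcinoma was taken 10 weeks after injection and a tubular adenocarcinoma 13 weeks after it, and each gave 1 library on the inDrop platform, which barcodes single cells in droplets. Both groups share the injected cells, the strain and the sex, and differ in tumor type and in time. The labels call the cells of both libraries tumor cells, although several clusters below carry markers of immune or stromal cells. The only file compares clusters, as computed by the authors, and names under each cluster the genes with a linear fold above 1.5, with a p-value. It holds no value per tumor, per library or per cell, so no comparison of the tumor types was possible and no value has an error across animals. The sources used here do not state the cells per cluster or the depth. The table does not say what the fold was taken against, and clusters may share reference cells.

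Below, listed means that a cluster's part of the table names the member, and raised means that it does so with a fold of 2 or more and a p no greater than 0.05. How that p was computed is not stated, and cells are not replicates, so it served as a filter only. A gene not listed in a cluster has no value there, which does not show that it is absent from those cells.

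Clusters were described by marker genes. Cluster 11 had 9 of 10 fibroblast genes raised and 0 of 10 macrophage genes. The macrophage genes were raised at 9 of 10 in cluster 4, 10 of 10 in cluster 8 and 6 of 10 in cluster 10. Cluster 8 also had 5 of 7 dendritic cell genes raised, and cluster 10 had 6 of 6 neutrophil genes and 5 of 6 T and NK cell genes. Genes of gastric surface mucous cells were raised at 6 of 7 in cluster 6, 7 of 7 in cluster 9 and 3 of 7 in cluster 3. General epithelial genes were raised at 5 of 9 in clusters 6 and 9 each, 4 of 9 in cluster 3, 2 of 9 in cluster 7 and 1 of 9 in cluster 5. Cluster 5 also had 4 of 7 mast cell genes and cluster 2 had 5 of 5 red cell genes raised, while clusters 1 and 7 had at most 2 raised in any list. The mast cell gene Kit was raised in clusters 4 and 6 (1 of 7 each) and not in cluster 5. Fibroblast genes were also raised in cluster 4 (2 of 10) and cluster 8 (1 of 10), and endothelial genes in clusters 10 and 11 (2 of 5 each) and cluster 9 (1 of 5). Dendritic cell genes were also raised in clusters 4 and 10 (2 of 7 each), and T and NK cell genes in cluster 8 (1 of 6). Where a cluster held markers of more than one cell type, the part of each in the values below was not tested.

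These proteins remodel the space around cells. Mmp and ADAMTS enzymes cut collagens, proteoglycans and other matrix proteins, ADAM enzymes release growth factors, cytokines and receptors from the cell surface, and most use a zinc ion to do so. The enzymes are made as inactive precursors, and Timp proteins block the active site. In tumors much of this activity is known to come from stromal and immune cells as well as from the cancer cells.

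Part of the Mmp family lies in a single block on chromosome 9, between 7272514 and 7699585 of GRCm38 (mm10), where the annotation places 9 Mmp genes and 5 of them are members. AP-1, the dimer of Fos and Jun proteins, is long known to act on several Mmp promoters through the element TGANTCA. This element reads the same on both strands and was searched in RefSeq promoter windows (GRCm38.p6), from 250 bases before to 50 bases after each start. Of the 48 members, 30 matched a window by symbol and 4 held the element (13.3%), against 901 of 12332 genes of the table with a window (7.31%). The 4 stretches are shown because 3 of them belong to neighbours in the chromosome 9 block whose cluster patterns differ, as described below. The element is in capitals, 5′ to 3′ on the gene's own strand, which is the plus strand for all 4.
Mmp13, chr9:7272444-7272520: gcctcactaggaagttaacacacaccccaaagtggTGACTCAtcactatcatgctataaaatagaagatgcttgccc
Mmp12, chr9:7347295-7347371: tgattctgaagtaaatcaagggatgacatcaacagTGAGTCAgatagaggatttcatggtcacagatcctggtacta
Mmp3, chr9:7445741-7445817: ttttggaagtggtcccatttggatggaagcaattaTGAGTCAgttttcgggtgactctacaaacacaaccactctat
Adam19, chr11:46055818-46055894: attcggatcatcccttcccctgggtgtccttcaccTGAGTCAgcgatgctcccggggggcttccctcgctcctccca

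The first base of the element lies 35 bases before the RefSeq start in Mmp13, 44 in Mmp12, 46 in Mmp3 and 131 in Adam19. Mmp12 has 2 RefSeq windows and Adam19 has 3, and for both genes 1 window holds the element. Windows were also present for Mmp8 and Mmp27, the other 2 members of the block, and these letters do not occur in them. A match describes the sequence and does not show binding.

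Across the table the members gave 109 listed pairs of a gene and a cluster, of which 51 were raised. These are 9.66% of the 528 possible pairs, beside 10.0% over all genes, so the family as a whole was raised about as often as other genes. At least 1 cluster raised 39 of the 48 members (81.3%, beside 78.0% of all genes). Exactly 1 cluster raised 30 members (62.5%, beside 50.9% of all genes). A further 6 members were raised in 2 clusters (12.5%, beside 22.3%) and 3 in 3 (6.25%, beside 4.44%). The members were unevenly spread over the clusters. Cluster 11 raised 21 members (43.8%, beside 17.0% of all genes), and 16 of these 21 were raised in no other cluster. Being raised in a single cluster was common, since it held for 9333 of the 14289 genes raised in any cluster. Cluster 4 raised 10 members (20.8%, beside 18.6%), cluster 8 raised 4 (8.33%, beside 6.36%) and cluster 10 raised 3 (6.25%, beside 4.90%), shares near that of other genes. Clusters 6 and 9, which raised most surface mucous genes, lay below it, with 4 members in cluster 6 (8.33%, beside 20.3%) and 5 in cluster 9 (10.4%, beside 26.6%). Clusters 2, 3, 5 and 7 raised 1 member each (2.08%, beside 2.89%, 4.001%, 4.32% and 3.42% of all genes), and cluster 1 raised 0 (beside 1.82%).

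**Figure D1:**
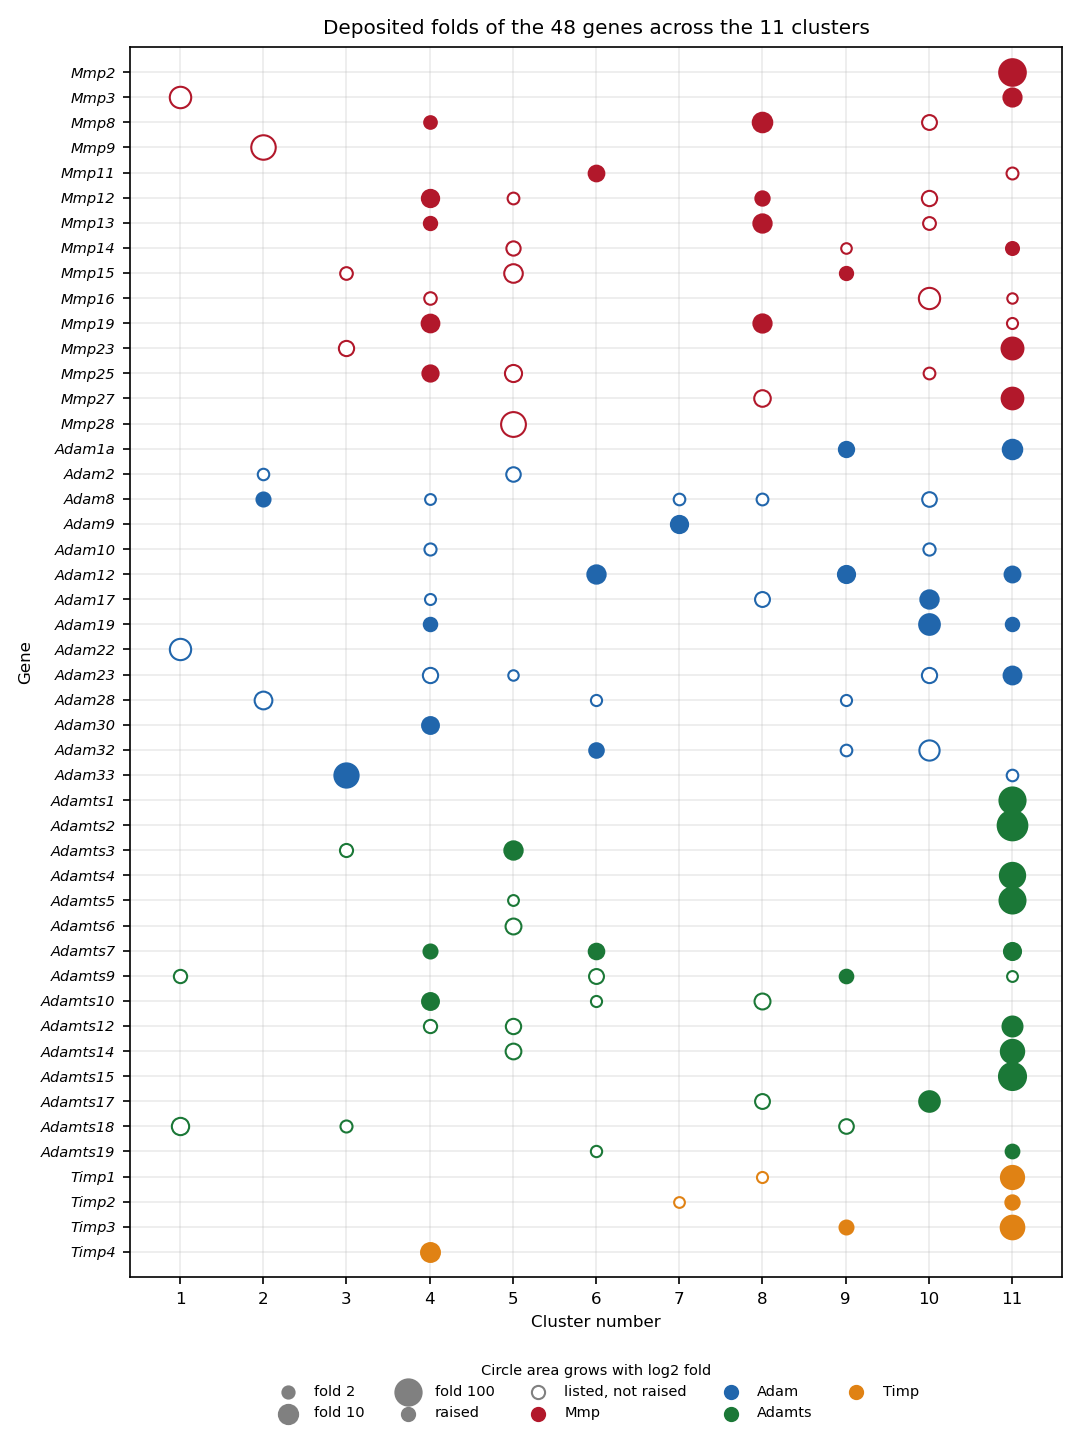
Deposited folds of the 48 members (vertical axis, coloured by class) in clusters 1 to 11 (horizontal axis), where circle area grows with log2 fold, filled circles are raised and open circles are listed but not raised. The filled circles crowd in cluster 11, with 21 raised members, and most of the remaining members have 1 or 2 filled circles elsewhere.

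**Figure D2:**
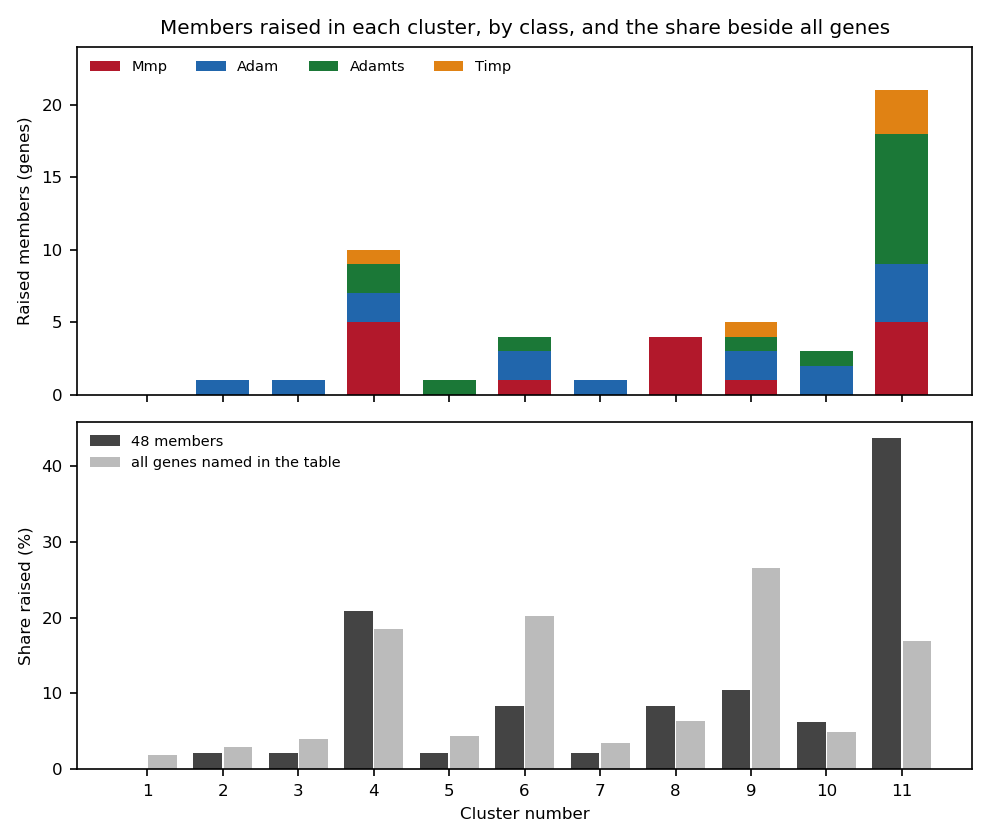
Raised members per cluster as stacked counts by class (top, genes) and as a share of the 48 members beside the share of all 18319 genes (bottom, percent). Cluster 11 reaches 21 members and 43.8% beside 17.0% of all genes, and clusters 6 and 9 fall below the share of all genes.

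The fibroblast-like cluster 11 held the largest folds of the family, and ADAMTS genes led it. Of the 15 Adamts members 9 were raised there and a further 1, Adamts9, was listed at 1.60, per the authors' deposited table. The median fold of the 21 raised members was 20.6, beside 4.64 over all 3112 genes raised in cluster 11, from the authors' deposited table. By fold, 9 of the 21 stood within the first 10% of those genes.

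The largest fold belonged to an enzyme that trims fibrillar procollagens. Adamts2, which removes the amino-terminal propeptide of procollagen I, had a fold of 402.3, per the authors' deposited table, rank 10 of the 3112 raised genes. It lies on chromosome 11 from 50602084 to 50807573 and was listed in no other cluster. Its relative Adamts14 was at 35.6 in cluster 11 and at 4.12 in cluster 5, not raised there, per the authors' deposited table. The procollagen substrates of this group were raised in the same cluster, with folds for Col1a2, Col1a1 and Col3a1 of 343.5, 312.2 and 66.1, per the authors' deposited table. The third enzyme of the group, Adamts3, was not listed in cluster 11. It was raised in cluster 5 alone, at 7.79, and stood at 2.38 in cluster 3 without being raised, per the authors' deposited table.

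Of the proteases of the versican and aggrecan type, 4 had folds between those of Adamts2 and Adamts14. Adamts15 was at 136.7, Adamts1 at 95.0, Adamts5 at 90.9 and Adamts4 at 70.2 in cluster 11, per the authors' deposited table, and their ranks by fold were 55, 91, 97 and 133. Adamts1, Adamts4 and Adamts15 were listed in no other cluster, and Adamts5 was otherwise listed at 1.60 in cluster 5, not raised, per the authors' deposited table. Adamts1 and Adamts5 are neighbours on chromosome 16, from 85793827 to 85803113 and from 85856173 to 85901828, with 53059 bases between them. Adamts9, of the same type, differed from them: it was raised in cluster 9 at 2.60 and not in clusters 1, 6 and 11, where it stood at 2.46, 3.42 and 1.60, per the authors' deposited table. Versican (Vcan), a substrate of this group, was raised in clusters 4, 8 and 11, at 8.41, 3.45 and 6.44, per the authors' deposited table. Aggrecan (Acan) was raised in cluster 9 at 3.03, stood at 3.09 in cluster 6 without being raised, and was not listed in cluster 11, per the authors' deposited table.

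Adamts12 and Adamts7, which both cut cartilage oligomeric matrix protein, had folds of 12.3 and 5.62 in cluster 11, per the authors' deposited table. Adamts12 was raised nowhere else, whereas Adamts7 was also raised in cluster 4 at 2.83 and in cluster 6 at 3.92, per the authors' deposited table. The Adamts7 call in cluster 6 was lost at a p of at most 0.01. Adamts19 had the smallest raised ADAMTS fold of cluster 11, at 2.67, per the authors' deposited table, and was at 1.73, not raised, in cluster 6.

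Among the matrix metalloproteases of cluster 11, Mmp2 stood first. This gelatinase, which cuts denatured collagen and basement membrane collagen, had a fold of 115.3, per the authors' deposited table, rank 66 of 3112 by fold and place 23 by p. It lies on chromosome 8 from 92827291 to 92853420 and no other cluster listed it. Its membrane-bound activator Mmp14 was raised in cluster 11 at a far smaller fold of 2.32, and it was listed at 1.55 in cluster 9 and 2.99 in cluster 5 without being raised, per the authors' deposited table. Mmp23 and Mmp27 were at 21.9 and 20.6 in cluster 11, per the authors' deposited table. The stromelysin Mmp3, which cuts proteoglycans and activates other Mmp precursors, was at 7.41 there, per the authors' deposited table, and its larger fold of 19.3 in cluster 1 was not raised.

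Inhibitors were raised in the same cluster as these enzymes. Timp3, which binds to the matrix and also blocks ADAM17 and several ADAMTS enzymes, was at 39.0 in cluster 11 and at 2.81 in cluster 9, per the authors' deposited table. Timp1 was at 33.6 in cluster 11, and its only other entry was 1.66 in cluster 8, not raised, per the authors' deposited table. Timp2, which takes part in the activation of Mmp2 by Mmp14, was at 2.996 in cluster 11 and at 1.58 in cluster 7, not raised, per the authors' deposited table. Timp4 had a different pattern, with a single entry, cluster 4, at 9.07, per the authors' deposited table. That call was lost at a p of at most 0.01. The Timp genes lie on chromosomes X (Timp1), 11 (Timp2), 10 (Timp3) and 6 (Timp4).

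ADAM genes reached smaller maxima in cluster 11 than the other classes. The sperm-type gene Adam1a was at 10.6, Adam23, whose protein lacks protease activity and binds LGI proteins, at 6.80, and the meltrins Adam12 and Adam19 at 4.21 and 2.51, per the authors' deposited table. Adam33 was listed there at 1.81 and was raised in cluster 3 at 48.2, rank 8 of 733 raised genes, per the authors' deposited table. It was the only member raised in cluster 3, and that call was lost at a p of at most 0.01.

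**Figure D3:**
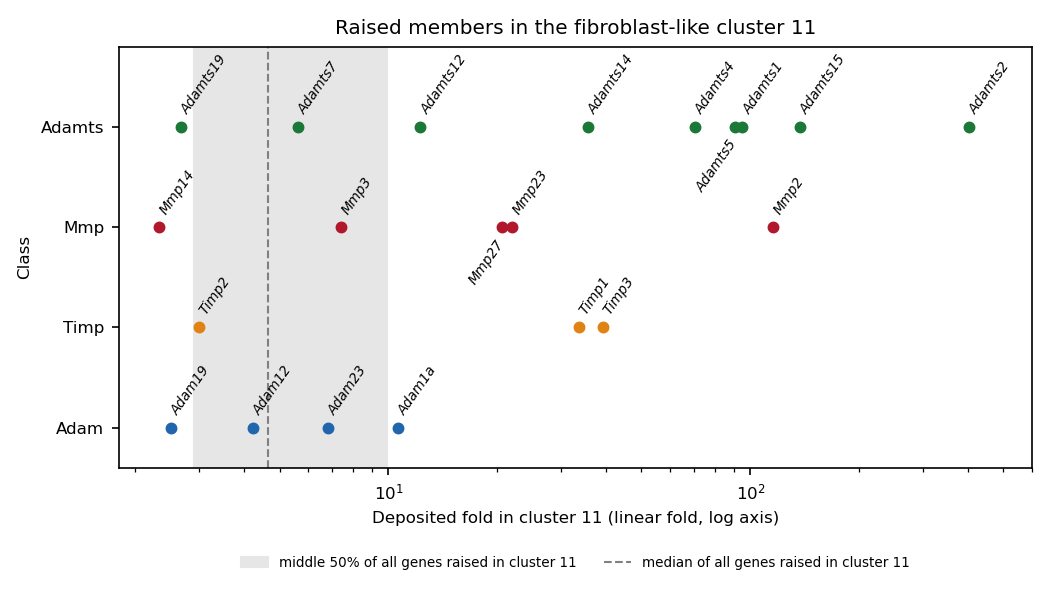
Deposited fold (horizontal log axis) of the 21 members raised in cluster 11, by class, with the median (dashed line) and the middle 50% (grey band) of all genes raised there. Adamts2 at 402.3, Adamts15 at 136.7 and Mmp2 at 115.3 lie farthest to the right, and Mmp14, Adam19 and Adamts19 lie left of the band.

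Clusters 4 and 8, which raised most macrophage genes, raised other Mmp genes than cluster 11. Separate sets are common here, since 9333 of the 14289 genes raised in any cluster were raised in exactly 1. Cluster 4 raised Mmp19 at 6.61, Mmp12 at 5.93, Mmp25 at 4.58, Mmp13 at 2.46 and Mmp8 at 2.18, per the authors' deposited table. Cluster 8, with macrophage and dendritic cell genes, raised Mmp8 at 10.8, Mmp13 at 7.68, Mmp19 at 7.54 and Mmp12 at 3.004, per the authors' deposited table. These were the only members raised in cluster 8, and the Mmp19 call there was lost at a p of at most 0.01. Mmp12 is the elastase of macrophages, Mmp8 and Mmp13 are collagenases, and Mmp25 is an enzyme of leukocyte membranes. The order differed between the clusters, since Mmp8 was lowest of the 5 in cluster 4 and highest of the 4 in cluster 8, and no test of that difference is possible from the table. The median fold of the 10 raised members in cluster 4 was 4.94, beside 3.73 over all raised genes, and that of the 4 in cluster 8 was 7.61, beside 5.61, from the authors' deposited table.

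Cluster 10 had all 6 neutrophil genes, 6 of 10 macrophage genes and 5 of 6 T and NK cell genes raised. It raised 0 of the 15 Mmp members, beside 4.90% of all genes, so the count of 0 lies near that share. Mmp16, Mmp12, Mmp8, Mmp13 and Mmp25 were listed there at 18.4, 3.74, 3.39, 2.25 and 1.86, per the authors' deposited table, and none passed the p filter. Mmp8 and Mmp9 are known as granule proteases of neutrophils. Mmp9 was not listed in cluster 10, and its only entry was 52.9 in cluster 2, with red cell genes, where it was not raised, per the authors' deposited table. Cluster 2 also listed 3 of the 6 neutrophil genes, S100a8 at 5.54, S100a9 at 3.51 and Retnlg at 2.32, none of them raised. It likewise listed 3 of 10 macrophage genes, 2 of 7 mast cell genes and 2 of 5 endothelial genes, again with none raised. Which cells gave the Mmp9 entry was not tested.

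Several ADAM genes had entries in the immune clusters. Adam17, which releases TNF and EGF receptor ligands, was raised in cluster 10 at 7.81 and was listed at 3.42 in cluster 8 and 1.65 in cluster 4, not raised, per the authors' deposited table. Adam19 was raised in clusters 4, 10 and 11, at 2.52, 15.1 and 2.51, per the authors' deposited table. Adam10, the main sheddase of Notch and E-cadherin, was raised nowhere and stood at 1.98 in cluster 4 and 2.02 in cluster 10, per the authors' deposited table. Adam8, of leukocytes, had the most entries of all members, 5. It was raised in cluster 2 at 2.85 and listed in clusters 4, 7, 8 and 10 at 1.60, 1.82, 1.87 and 3.23, per the authors' deposited table. The call in cluster 2 was lost at a p of at most 0.01 and at a fold of at least 3.

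A few more ADAMTS genes and a testis-type ADAM gene were raised in immune clusters. Adamts10 and Adam30 were raised in cluster 4 at 5.35 and 5.30, per the authors' deposited table. Adamts17 was raised in cluster 10 at 14.7 and listed in cluster 8 at 3.39, not raised, per the authors' deposited table. The calls of Adamts10 in cluster 4 and Adamts17 in cluster 10 were lost at a p of at most 0.01. Adamts7 in cluster 4 is given above.

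The chromosome 9 block held members raised in clusters 4 and 8 beside members raised in cluster 11. Along the chromosome the members run Mmp13, Mmp12, Mmp3, Mmp8 and Mmp27. Mmp13, Mmp12 and Mmp8 were raised in clusters 4 and 8, while Mmp3 and Mmp27 were raised in cluster 11. Mmp8 ends at 7568485 and Mmp27 begins at 7571396, a gap of 2910 bases. Across that gap cluster 8 had a fold of 10.8 for Mmp8 and 5.01, not raised, for Mmp27, per the authors' deposited table. Cluster 11 had 20.6 for Mmp27, per the authors' deposited table, and did not list Mmp8. The AP-1 element printed above occurred in Mmp13 and Mmp12, raised in clusters 4 and 8, and in Mmp3, raised in cluster 11. Among members with a promoter window, 3 of the 6 raised in cluster 4 held it (beside 8.40% of all genes raised there), as did 2 of the 14 raised in cluster 11 (14.3%, beside 6.93%).

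**Figure D4:**
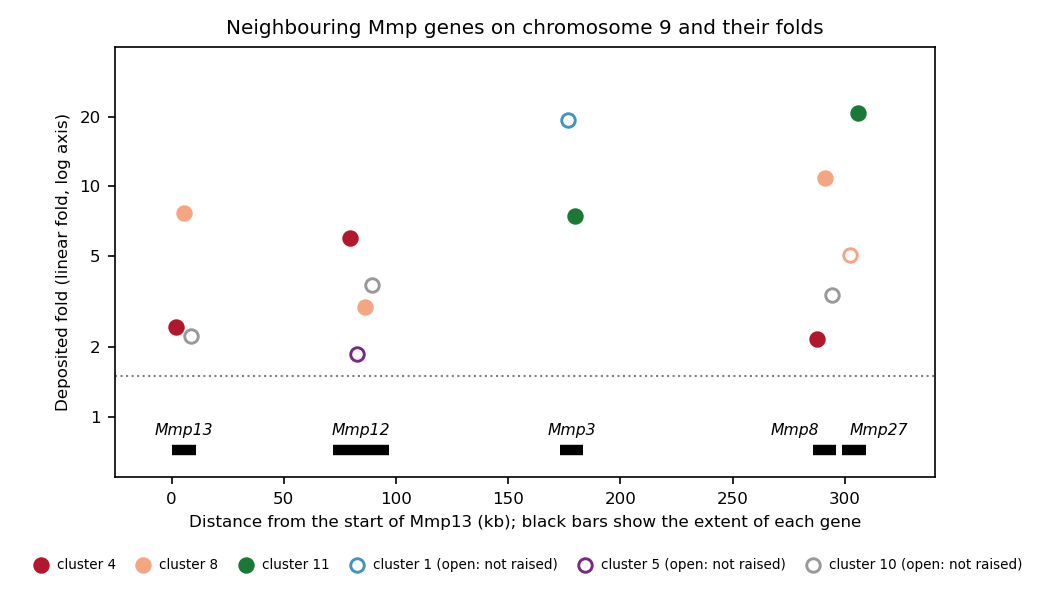
Deposited fold (vertical log axis) of the 5 members in the chromosome 9 block against distance from the start of Mmp13 (horizontal axis, kb), coloured by cluster, with filled points raised, open points listed only, a dotted line at 1.5 and points of a gene spread sideways for legibility. Mmp13, Mmp12 and Mmp8 have filled points for clusters 4 and 8, and Mmp3 and Mmp27 for cluster 11.

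Clusters 6 and 9, with the most epithelial genes raised, raised few members, with folds of at most 7.73 per the authors' deposited table. Adam12, a membrane protease that can release EGF receptor ligands, was raised in both, at 7.73 in cluster 6 and 5.72 in cluster 9, besides cluster 11, per the authors' deposited table. The stromelysin-type Mmp11 was raised in cluster 6 at 4.08 and listed in cluster 11 at 1.93, per the authors' deposited table. Its call in cluster 6 was lost at a p of at most 0.01. Adam32, a testis-type gene, was raised in cluster 6 at 3.17 and listed at 1.82 in cluster 9 and 13.3 in cluster 10, per the authors' deposited table. Cluster 9 raised Adam1a at 3.69, Timp3 at 2.81, Adamts9 at 2.60 and the membrane-type Mmp15 at 2.42, per the authors' deposited table. The median fold of the 5 raised members of cluster 9 was 2.81, beside 3.10 over all its raised genes, and that of the 4 in cluster 6 was 4.0001, beside 3.34, from the authors' deposited table. Cluster 7, which raised 2 of 9 general epithelial genes, raised Adam9 alone, at 5.81, per the authors' deposited table, a call lost at a p of at most 0.01. Mmp15 was also listed in clusters 3 and 5, at 2.19 and 8.35, per the authors' deposited table, without being raised.

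Raised in no cluster were 9 members: Mmp9, Mmp16, Mmp28, Adam2, Adam10, Adam22, Adam28, Adamts6 and Adamts18. Mmp28 had a fold of 59.3 in cluster 5 and Adam22 one of 18.5 in cluster 1, per the authors' deposited table, and both missed the p filter. Adam28 was listed in clusters 2, 6 and 9 at 6.68, 1.69 and 1.67, and in the last 2 it missed the fold threshold only, per the authors' deposited table. Adamts6 had 1 entry, 4.25 in cluster 5, and Adamts18 had 5.9995, 1.96 and 3.22 in clusters 1, 3 and 9, per the authors' deposited table. Adam2 was at 1.78 in cluster 2 and 3.14 in cluster 5, per the authors' deposited table. Besides cluster 10, Mmp16 was listed in clusters 4 and 11 at 2.14 and 1.504, per the authors' deposited table. Members raised in some cluster also had entries that were not raised. In cluster 5 these included Mmp12 at 1.87 and Mmp25 at 5.70, per the authors' deposited table. Mmp19 was at 1.66 in cluster 11 and Mmp23 at 3.69 in cluster 3, per the authors' deposited table. For Adam23 the entries not raised were 3.70, 1.51 and 3.66 in clusters 4, 5 and 10, for Adamts12 2.44 and 3.76 in clusters 4 and 5, and for Adamts10 1.68 and 4.31 in clusters 6 and 8, per the authors' deposited table. Of all 58 listed pairs that were not raised, 34 had a fold of at least 2 and a p above 0.05, 15 had a small p and a fold under 2, and 9 met neither threshold. Clusters 5 and 10 each listed 12 of the 48 members (beside 20.6% and 18.9% of all genes) and raised 1 and 3.

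Activators, inhibitors and partners of these proteases formed a list of 32 genes, of which 27 were named in the table. Cluster 9 raised 9 of them (beside 26.6% of all genes), cluster 11 raised 7 (beside 17.0%) and clusters 4 and 6 raised 4 each (beside 18.6% and 20.3%). Cluster 5 raised 3 (beside 4.32%) and cluster 8 raised 2 (beside 6.36%). Clusters 1, 2, 3, 7 and 10 raised 1 each (beside 1.82%, 2.89%, 4.001%, 3.42% and 4.90%). In cluster 11 the plasminogen activator Plat was at 212.0, the membrane-anchored Mmp inhibitor Reck at 99.0, and the protease inhibitor Serpine2 at 39.4, per the authors' deposited table. The urokinase receptor Plaur was raised in cluster 10, at 5.55, per the authors' deposited table. In cluster 4, Rhbdf2, which escorts ADAM17 to the cell surface, was at 6.90, Furin, which activates protease precursors, at 3.30, and Tspan33 and Tspan17, partners of ADAM10, at 13.2 and 3.19, per the authors' deposited table. In cluster 9 the ADAM10 partner Tspan15 was at 7.99 and Frmd8, which stabilises the ADAM17 complex, at 4.98, per the authors' deposited table. The Mmp inducer basigin (Bsg) was raised in clusters 3, 6 and 9, at 2.38, 2.02 and 2.10, per the authors' deposited table.

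Proteins shed by ADAM10 or ADAM17 were raised in several clusters, and 10 of 10 substrates on the list were named in the table. Tnf was raised in cluster 10 at 17.3, the cluster that raised Adam17, per the authors' deposited table. Among EGF receptor ligands, Hbegf and Areg were raised in cluster 2 at 6.44 and 4.72, Ereg in cluster 4 at 10.9, Tgfa in cluster 6 at 14.1 and Btc in cluster 9 at 2.57, per the authors' deposited table. The interleukin receptor Il6ra was raised in clusters 4 and 8 at 6.13 and 4.47, and Notch1 in cluster 9 at 3.49, per the authors' deposited table. E-cadherin (Cdh1) was raised in clusters 5 and 7 at 3.94 and 2.74, per the authors' deposited table. Cx3cl1 was raised in clusters 3, 6 and 9 at 4.73, 2.80 and 2.35, per the authors' deposited table. Of the 10, cluster 9 raised 3 (beside 26.6% of all genes) and clusters 2, 4 and 6 raised 2 each (beside 2.89%, 18.6% and 20.3%). Clusters 3, 5, 7, 8 and 10 raised 1 each (beside 4.001%, 4.32%, 3.42%, 6.36% and 4.90%). Clusters 1 and 11 raised 0 (beside 1.82% and 17.0%), and with a list of 10 genes such counts say little. Cluster 11 listed Notch1 at 2.99 and Ereg at 2.44, not raised, per the authors' deposited table.

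Several members share their place in the genome with another gene, and the sources used here do not state the strand setting of the counting. Another gene named in the table overlaps 13 of the 48, and for 5 of them both genes were raised in the same cluster. Tmem198b overlaps Mmp19 on the opposite strand and was raised with it, at 7.58 in cluster 4 and 6.12 in cluster 8, per the authors' deposited table. For Adam19 in cluster 4 the antisense Gm16033 was at 7.95, and for Adamts9 in cluster 9 the antisense 9530026P05Rik was at 2.86, per the authors' deposited table. For Adamts7 in cluster 11 the opposite-strand Tbc1d2b was at 5.99, per the authors' deposited table. Adam1a shares its strand with Gm42878, at 5.75 in cluster 9, and with Mapkapk5, at 2.30 in cluster 11, per the authors' deposited table. For these 5 members reads of the partner may enter the value, which was not tested. Timp1, Timp3 and Timp4 lie within the genes Syn1, Syn3 and Syn2 on the opposite strand, and none of these partners was raised in a cluster where the Timp gene was.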

How the data were processed

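Cells of 2 tumors, 1 library each, were run on the inDrop platform and prepared by TruDrop, per the labels' protocols. The submitters' processing notes name mm10, STAR 2.7.3a, Partek and DESeq2 3.5, without a role. The sources used here do not state cell filters, doublet treatment, the clustering or the test behind the table. The authors deposited 1 table with a linear fold (a ratio) and a p-value per gene and cluster, per the file headers. It holds 0 columns of per-sample values. Genes below a fold of 1.5 are not in it, and depth is unknown.

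With Python 3.11.15 and pandas 2.3.3, members were matched by name and counted as raised at a fold of at least 2 and a p of at most 0.05. Shares were set beside those over all 18319 named genes. No test was run, since cells are not replicates. Reading and calling were checked on a simulated table. Positions are from GENCODE M21 (1-based), and promoter windows from RefSeq. The members and lists were chosen with earlier results of these data known. Every raised member, and every Timp gene, was named; members not raised and genes of other lists were named after their values were seen. A planned description of protein motifs was not made. Alternatives were folds of at least 1.5 or 3, p no greater than 0.01, and no p filter. Of the genes on the lists, 2 are not reported here and were left out of the counts.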

Additional observations from a re-analysis of the deposited data

How the results depend on the processing

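Counts of raised members were recomputed at a fold of at least 1.5, at a fold of at least 3, at a p of at most 0.01 and without the p filter. Cluster 11 kept the most raised members under all 4, with 25, 17, 21 and 21, or 52.1%, 35.4%, 43.8% and 43.8% of the members, beside 20.6%, 12.4%, 14.7% and 20.4% of all genes. Cluster 4 came second with 13, 6, 8 and 13, beside 23.5%, 12.1%, 16.2% and 23.2% of all genes. The number raised in at least 1 cluster and the numbers per class stayed within 1.5 times of those reported. Without the p filter the raised pairs went from 51 to 85. Clusters 1, 2, 3, 5, 8 and 10 then counted 4, 3, 4, 9, 8 and 11. The shares of all genes rose there too. In clusters 1, 2, 5, 8 and 10 they reached 5.65%, 7.39%, 16.3%, 20.3% and 15.9%. With the filter they were 1.82%, 2.89%, 4.32%, 6.36% and 4.90%. In cluster 3 the share of all genes likewise rose above its 4.001% with the filter. At a fold of 1.5 clusters 3, 7 and 9 counted 2, 3 and 8, beside 4.78%, 4.45% and 37.9% of all genes. At a fold of 3 clusters 2, 4 and 9 counted 0, 6 and 2, beside 1.92%, 12.1% and 14.1% of all genes. At a p of at most 0.01 clusters 2, 3 and 7 counted 0 and cluster 6 counted 2. Clusters 5 and 10, with 1 and 3 raised members, moved most when the p filter was dropped. No paired analysis was possible because the table has no columns per sample. The number of cells behind each fold is unknown, so large folds of genes seen in few cells cannot be weighed.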
